A study of Mus musculus with 8 samples.

Results

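The 37 genes described here carry out glycolysis or respond to low oxygen, and they were chosen by gene name for these functions. All 37 were listed in the count tables of the E11.5 and the E12.5 mouse cortex, which have 22876 genes in common. They comprise 2 glucose transporters, 2 lactate transporters, 17 enzymes from hexokinase to lactate dehydrogenase and pyruvate dehydrogenase kinase, 2 regulators of phosphofructokinase, and 14 genes of the response to hypoxia-inducible factor (HIF). RNA sequencing of poly(A) RNA compared cortices of Mboat7+/- embryos with cortices of Mboat7-/- embryos on embryonic days E11.5 and E12.5, with 2 cortices per genotype at each stage and 8 in all. Mboat7 codes for an enzyme that remodels the fatty acids of phosphatidylinositol, and it was knocked out in the whole animal. The controls at both stages carried 1 disrupted allele, so no wild-type cortex was included. The comparison asked whether the cortex of the knockout embryo already differed in expression before and at the onset of its defects. The labels state that the samples are biological replicates and also number them as batches 1 and 2. The label of E12.5 Mboat7+/- replicate 2 cites the column name of replicate 1, so columns were assigned by the number in their own names, and E12.5 ratios within a replicate number and the block at E12.5 rest on that reading.

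Glycolysis splits glucose into pyruvate in the cytosol, and lactate dehydrogenase then converts pyruvate to lactate when it is not burned in mitochondria. HIF is a transcription factor whose alpha subunit is hydroxylated by prolyl hydroxylases and destroyed while oxygen is plentiful, and it raises glucose transporters, most glycolytic enzymes and angiogenic signals when oxygen falls. Dividing neural progenitors of the early cortex are known to rely on glycolysis before blood vessels have grown into the tissue.

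HIF binds DNA at a short core, of which only the form ACGTG was searched for here. In the RefSeq promoters of build GRCm38.p6, 54 windows matched 36 of the 37 members by symbol, and Slc2a3 had none. In the 250 bases before the start, ACGTG on either strand was found in 26 of these 54 windows, or 48.1%, against 16.6% of all 32851 windows of the same length. The palindrome CACGTG holds the core on both strands and was counted once, and it lay in 11.1% of the members' windows and in 6.02% of all windows. When the window with the most matches was taken for each gene, the core was found in 11 of the 14 HIF group members and in 11 of 22 of the glycolysis group, against 18.5% of all 27025 symbols. The promoters below belong to the 4 genes with the most matches among the members that were higher in both replicate 1 cortices at E11.5, a pattern described later. They are printed from 5′ to 3′ on the strand of the gene, ending at the base before the start, with the core in capitals. A match is only a match of letters, and binding was not measured.
Ldha (lactate dehydrogenase A, chr7:46845554-46845803, plus strand): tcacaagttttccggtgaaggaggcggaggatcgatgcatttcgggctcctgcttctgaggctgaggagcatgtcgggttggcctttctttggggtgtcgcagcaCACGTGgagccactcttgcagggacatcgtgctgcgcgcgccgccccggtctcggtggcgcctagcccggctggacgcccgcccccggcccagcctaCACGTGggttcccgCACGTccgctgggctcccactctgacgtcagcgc
Hk2 (hexokinase 2, chr6:82774455-82774704, minus strand): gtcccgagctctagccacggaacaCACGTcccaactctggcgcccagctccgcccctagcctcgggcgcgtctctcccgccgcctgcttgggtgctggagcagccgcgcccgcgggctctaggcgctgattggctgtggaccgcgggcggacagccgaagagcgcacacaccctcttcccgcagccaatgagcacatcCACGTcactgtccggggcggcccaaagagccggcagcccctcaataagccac
Pgk1 (phosphoglycerate kinase 1, chrX:106186850-106187099, plus strand): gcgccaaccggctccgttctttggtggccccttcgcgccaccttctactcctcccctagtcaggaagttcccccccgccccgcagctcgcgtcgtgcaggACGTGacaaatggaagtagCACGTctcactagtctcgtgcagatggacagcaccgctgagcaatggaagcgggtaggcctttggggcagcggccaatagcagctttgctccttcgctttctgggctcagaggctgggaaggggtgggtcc
Slc16a3 (the lactate exporter MCT4, chr11:120948817-120949066, plus strand): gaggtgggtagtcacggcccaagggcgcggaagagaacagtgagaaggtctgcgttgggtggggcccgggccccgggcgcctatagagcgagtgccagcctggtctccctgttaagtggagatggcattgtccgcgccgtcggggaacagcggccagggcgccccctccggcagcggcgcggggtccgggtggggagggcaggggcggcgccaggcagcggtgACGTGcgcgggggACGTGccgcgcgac
The Ldha promoter held 3 matches, the nearest beginning 34 bases before the start, and each of the other three promoters held 2.

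The total count per cortex lay between 20799311 and 28189771, and levels are given as CPM, a gene's count as a share of the normalized library size. The level of Mboat7 itself differed little between genotypes, with a log2 fold change of 0.18 (SE 0.11, adjusted p = 0.501) at E11.5 and of -0.17 (SE 0.10, adjusted p = 0.954) at E12.5. Its count at E11.5 was 700 and 876 in Mboat7+/- and 1103 and 860 in Mboat7-/- cortices, and 739 and 782 against 730 and 729 at E12.5. A count over the whole gene cannot show which exons were lost, so the genotypes below rest on the labels. The cortical progenitor markers Emx1 and Pax6 were above 3 counts in every cortex at both stages. Xist was counted 17875 times in E11.5 Mboat7+/- replicate 1 and at most 2 times in each of the other cortices, so that cortex alone expressed this marker of female cells. The stages were sequenced by different providers and counted with different annotations, so the levels of E11.5 and E12.5 stand side by side without a test.

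Glycolytic enzymes led the members when levels were set per kilobase of the longest coding transcript. In the E11.5 Mboat7+/- cortices the highest were Pkm (pyruvate kinase) at 996 CPM per kilobase, Ldha at 462 and Tpi1 (triosephosphate isomerase) at 402. At E12.5 the order was Gapdh (glyceraldehyde phosphate dehydrogenase) at 2156 CPM per kilobase, Pkm at 879 and Eno1 (enolase 1) at 451. The lowest at E12.5 were Car9 (carbonic anhydrase 9) at 0.175 and Adm (adrenomedullin) at 0.828 CPM per kilobase.

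Gapdh and Eno1 could not be read as levels at E11.5. Eno1 had counts of 0, 0, 3 and 0 there, while Eno1b, a near-identical copy, had between 490 and 831 counts. At E12.5 this was turned around, with 16132 to 20644 counts on Eno1 and 37 to 48 on Eno1b. Gapdh had 5524 to 6568 counts at E11.5 and 53863 to 70390 at E12.5, and Gapdhs, its relative expressed in sperm, 102 to 143 against at most 2. The handling of reads that match several places is not given in the sources used here, so the E11.5 values of both genes are uncertain.

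At E11.5, 36 members passed the filter on low counts, all but Eno1. None met an FDR under 0.05 with edgeR's quasi-likelihood test or with DESeq2, and none met the study's further criterion that the log2 fold change be 1 or more in size, which 0% of the 14935 genes tested met. At an unadjusted p under 0.05, 4 members differed between genotypes, or 11.1%, below the 14.1% of all genes tested. In the knockout, as labelled, Ero1l and Kdm3a were higher and Aldoc and Gapdh lower. The 36 members had a median log2 fold change of 0.06, against -0.0055 over all genes tested, and 21 were above 0. This median hung on single cortices: it was -0.10 without Mboat7-/- replicate 1, -0.01 without Mboat7+/- replicate 2 and 0.20 without Mboat7-/- replicate 2.

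**Figure D1:**
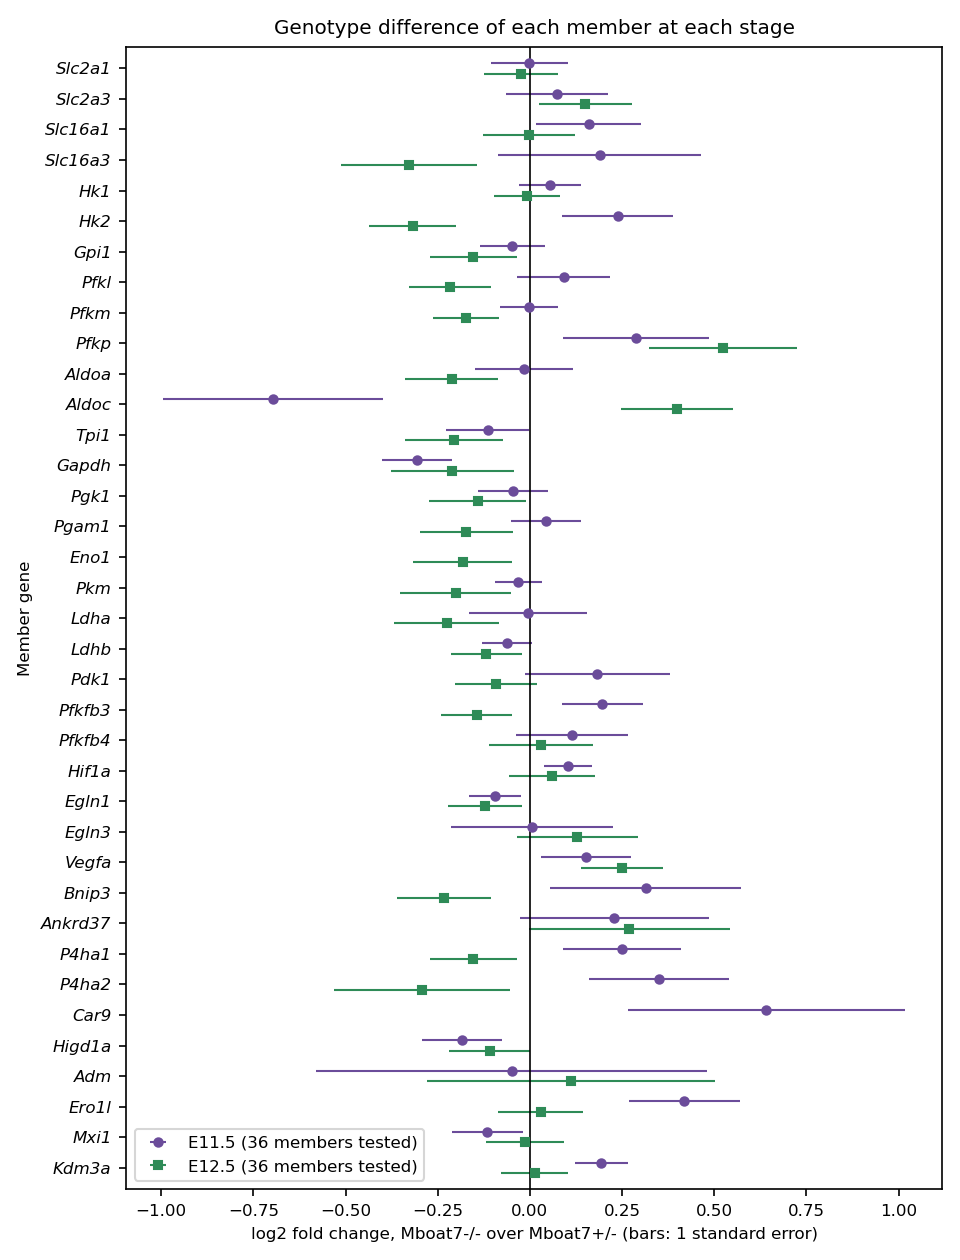
Log2 fold change of each member, cortices labelled Mboat7-/- over Mboat7+/-, on the horizontal axis, with 1 standard error as bars, for E11.5 (circles) and E12.5 (squares), 2 cortices per genotype. Enzymes from Gpi1 to Ldhb lie below 0 at E12.5 except Pfkp and Aldoc, while Aldoc is on opposite sides of 0 at the different stages, and no member passed the FDR threshold.

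Among the HIF group at E11.5, Ero1l and Kdm3a were the members with an unadjusted p under 0.05. Ero1l, an oxidase that forms disulfide bonds in the endoplasmic reticulum, stood at 35.4 and 28.5 CPM in the Mboat7+/- cortices and at 47.6 and 37.1 CPM in those labelled Mboat7-/-. The genotypes did not overlap, although the lower knockout value was only slightly above the higher control value. The log2 fold change was 0.42 (SE 0.15, adjusted p = 0.275). With the replicate number as a block its adjusted p was 0.0490, the only member under 0.05, where 3.38% of all genes tested were called. Over the alternatives tried, its adjusted p ranged from 0.0135 to 0.855. Kdm3a, a histone demethylase, stood at 124 and 118 CPM against 144 and 134 CPM. Its log2 fold change was 0.19 (SE 0.07, adjusted p = 0.290), and the log2 ratio was 0.21 within replicate 1 and 0.17 within replicate 2. The block raised the count of members with an unadjusted p under 0.05 from 4 to 7, or 19.4%, where it gave 17.6% of all genes, and the members added were Hk2, Bnip3 and P4ha1, all higher.

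Another 5 members were higher in both cortices labelled Mboat7-/- without reaching an unadjusted p of 0.05, which with Ero1l and Kdm3a made 7 of 36, against 23.1% of all genes tested. Hif1a, the oxygen-sensitive subunit itself, stood at 164 and 163 CPM against 171 and 180 CPM (log2 fold change 0.10, SE 0.06). P4ha2, a collagen prolyl hydroxylase, stood at 14.2 and 10.7 CPM against 17.0 and 14.3 CPM (0.35, SE 0.19). Pfkfb3, which makes the activator of phosphofructokinase, stood at 46.7 and 46.4 CPM against 58.3 and 48.1 CPM (0.20, SE 0.11). The last pair was sparse: Ankrd37, a small ankyrin repeat protein, stood at 4.62 and 4.38 CPM against 5.66 and 4.82 CPM (0.23, SE 0.26), and Car9, which handles carbonic acid outside the cell, at 1.34 and 2.23 CPM against 2.76 and 2.96 CPM (0.64, SE 0.38). In all 7, the gap between the nearest cortices of the different genotypes was smaller than the spread within one genotype.

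Another 3 of 36 members were lower in both cortices labelled Mboat7-/- at E11.5, against 23.3% of all genes tested. Aldoc, the brain form of aldolase, stood at 5.82 and 6.57 CPM in the Mboat7+/- cortices and at 2.94 and 4.86 CPM in the others. Its log2 fold change was -0.70 (SE 0.30, adjusted p = 0.342). Gapdh, uncertain at this stage, stood at 282 and 248 CPM against 195 and 233 CPM (-0.31, SE 0.10, adjusted p = 0.232). Egln1, the main prolyl hydroxylase acting on HIF, stood at 143 and 136 CPM against 135 and 127 CPM (-0.09, SE 0.07, adjusted p = 0.578). The Egln1 cortices nearly touched, while Aldoc had the lowest log2 fold change of the 36 members and one of the lowest levels.

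**Figure D2:**
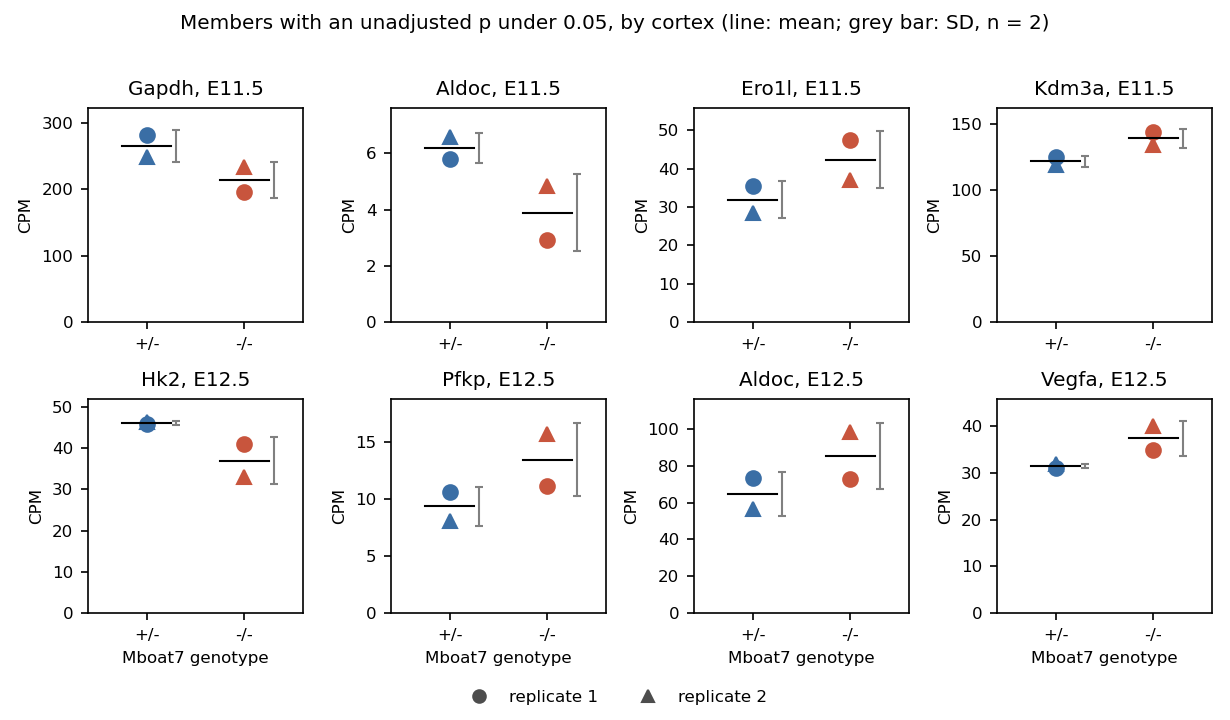
CPM (vertical axes, each from 0) of the members with an unadjusted p under 0.05, at E11.5 in the upper row and E12.5 in the lower row, for the 2 cortices of each genotype, with the mean as a line and the SD as a grey bar. Genotypes are apart in all panels but that of Aldoc at E12.5, where the lower knockout cortex lies below the higher control.

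The more regular pattern at E11.5 followed the replicate number. In 20 of 36 members, or 55.6%, both replicate 1 cortices stood above both replicate 2 cortices, against 15.0% of all genes tested. The reverse held for 2 members, Pfkm and Mxi1, where it held for 14.7% of all genes. Glycolytic genes from entry to exit were among the 20: both glucose transporters and both lactate transporters, Hk2, Gpi1, Pfkl, Pfkp, Aldoa, Tpi1, Pgk1, Pgam1, Pkm, Ldha, Pdk1 and Pfkfb4, with Egln3, Vegfa, Bnip3 and P4ha1 of the HIF group. Slc16a3, which exports lactate, stood at 69.4 and 84.3 CPM in the replicate 1 cortices of the 2 genotypes and at 45.2 and 44.5 CPM in the replicate 2 cortices. Ldha stood at 952 and 979 CPM against 726 and 692 CPM, and Bnip3, a mitochondrial protein that starts mitophagy, at 42.4 and 59.0 CPM against 31.4 and 31.4 CPM. Pkm, the most abundant member, was less far apart, at 2533 and 2474 CPM against 2313 and 2268 CPM. ACGTG was found in the promoters of 13 of the 19 such members with a window and in 9 of the other 17, and both shares are above that of all symbols. Since the labels call the replicate number a batch, the embryo, its litter and its handling cannot be told apart here.

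**Figure D3:**
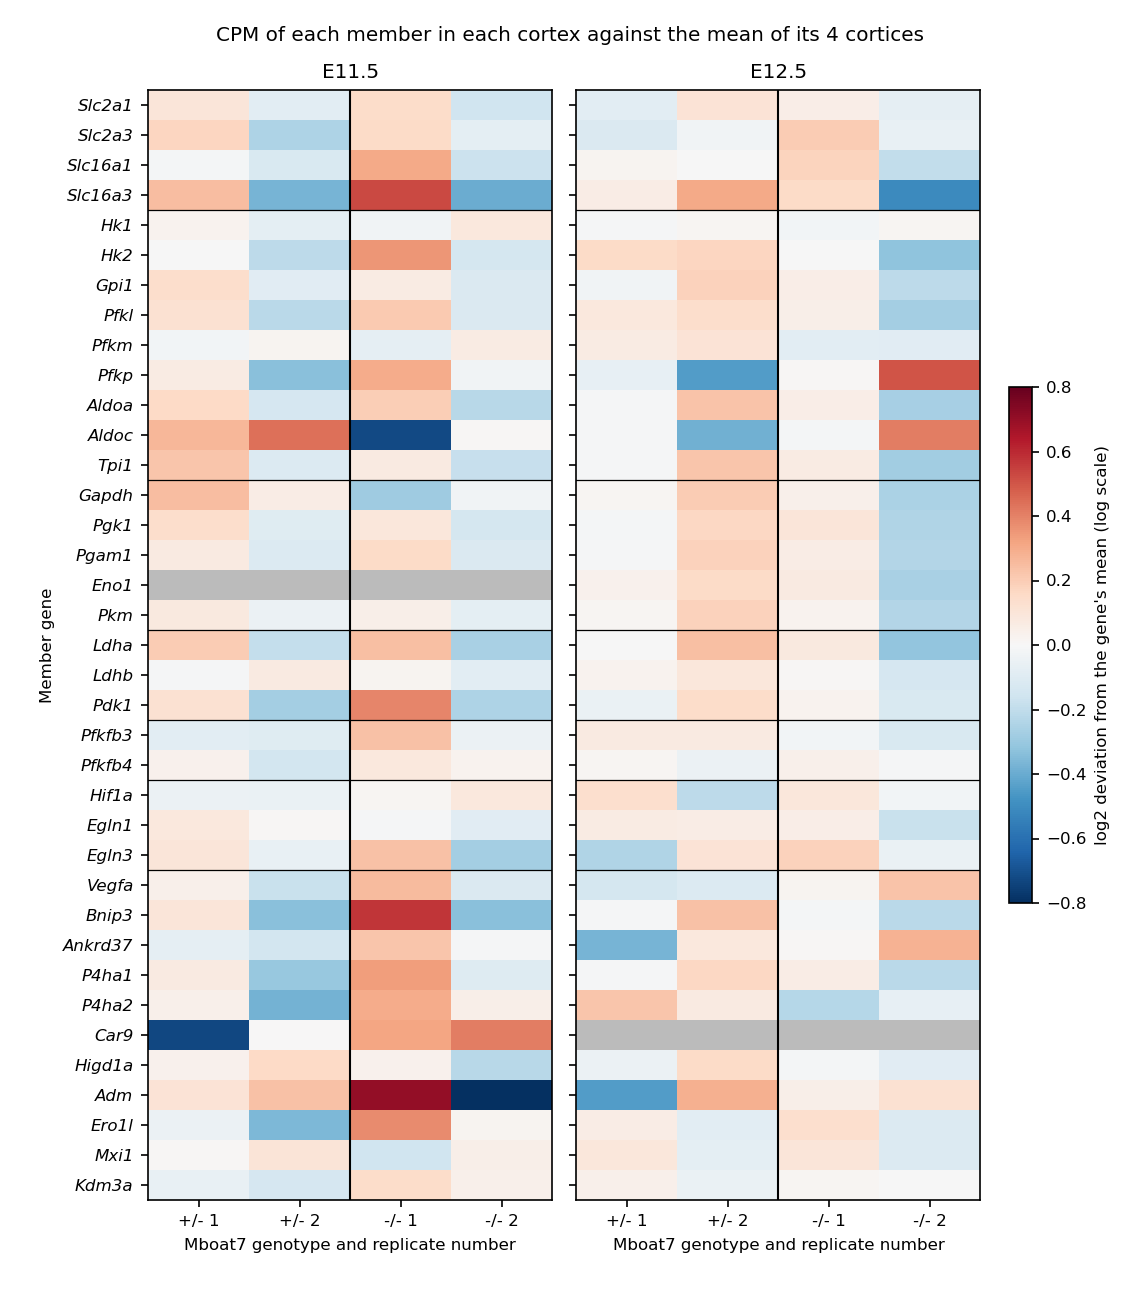
Log2 deviation of each member (rows) from the mean of its 4 cortices (columns) at E11.5 and E12.5, red above and blue below, with colours saturating at 0.8 in each direction and grey for Eno1 at E11.5 and Car9 at E12.5, which failed the filter. Replicate 1 columns are mostly red and replicate 2 columns mostly blue at E11.5, while at E12.5 the most uniform column is the blue one of Mboat7-/- replicate 2.

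Mboat7-/- replicate 1 had the highest value of the 4 cortices in 21 of 36 members at E11.5, where it was the highest in 29.6% of all genes tested. Without the other knockout cortex, 14 members were higher and 2 lower at an unadjusted p under 0.05 (21.0% of all genes), and 9 met an FDR under 0.05 (7.72% of all genes). These were Slc16a1, Slc16a3, Hk2, Gapdh, Pdk1, Vegfa, Bnip3, P4ha1 and Ero1l, of which Gapdh was lower. Without Mboat7-/- replicate 1, none was higher and 6 were lower (12.3% of all genes), and none met the FDR (0.334% of all genes). Mboat7-/- replicate 1 also had the lowest sums of neuronal and progenitor markers. The 7 neuronal markers, such as Tubb3 and Tbr1, all above 3 counts, summed to 1191 CPM there, against 1907 CPM in the other knockout cortex and 1806 and 2065 CPM in the Mboat7+/- cortices. The 3 intermediate progenitor markers summed to 271 CPM against 359 CPM in the other knockout cortex and 363 and 387 CPM in the Mboat7+/- cortices, and 7 cortical progenitor markers to 2135 CPM against 2556, 2465 and 2544 CPM. The sums of red blood cell, mesenchymal, endothelial and intermediate progenitor markers separated the genotypes. Emx1, Pax6, Lhx2, Sox2, Hes5, Eomes, Btg2 and Tubb3 were each lower in both cortices labelled Mboat7-/-, where 23.3% of all genes were. Emx1 stood at 56.9 and 65.7 CPM in the Mboat7+/- cortices against 35.8 and 49.6 CPM. Emx2, Nes, Neurog2 and the other neuronal markers overlapped between genotypes. Of 8 red blood cell markers, 6 were above 3 counts and Hba-a1 was listed at 0, and their sum was 6780 and 5119 CPM in the Mboat7+/- cortices against 3536 and 3764 CPM in the others. The 7 mesenchymal markers summed to 1553 and 1504 CPM against 1740 and 1934 CPM. The 7 endothelial markers summed to 291 and 273 CPM against 317 and 304 CPM. Of these, Cdh5, Kdr and Tek were each higher in both cortices labelled Mboat7-/-, where 23.1% of all genes were, and the others overlapped. In bulk tissue, fewer cells of a type and less RNA per cell cannot be told apart, and the part of these cell types in the members' values was not tested.

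At E12.5, 36 members passed the filter, all but Car9. None met an FDR under 0.05 with edgeR or DESeq2, and none met the fold criterion as well, which 0.0184% of the 16326 genes tested did. At an unadjusted p under 0.05, 4 members differed, or 11.1%, where 4.23% of all genes did. In the knockout, as labelled, Pfkp, Aldoc and Vegfa were higher and Hk2 lower. No member had an adjusted p below 0.954. The members had a median log2 fold change of -0.12, against 0.0049 over all genes tested, and 25 of 36 were below 0. Of the 17 enzymes, 15 were below 0 with a median of -0.17, whereas the HIF group had 6 of 13 below 0 and a median of 0.01.

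Phosphofructokinase commits sugar to glycolysis and is made in 3 forms, of which Pfkp had an unadjusted p under 0.05 at E12.5 and the other two did not. Pfkp, the platelet form, stood at 10.6 and 8.11 CPM in the Mboat7+/- cortices and at 11.2 and 15.7 CPM in the knockout. Its log2 fold change was 0.52 (SE 0.20, adjusted p = 0.954). Pfkl, the liver form, stood at 180 and 188 CPM against 176 and 141 CPM (-0.22, SE 0.11, adjusted p = 0.954), and Pfkm, the muscle form, at 95.9 and 98.9 CPM against 86.5 and 86.2 CPM (-0.17, SE 0.09, adjusted p = 0.954). Per length, Pfkp made up 3.03% and 2.26% of the 3 forms in the Mboat7+/- cortices, against 3.37% and 5.29% for the knockout. Pfkl made up 57.4% and 58.1% against 59.0% and 52.8%, so it remained the leading form in all 4 cortices. At E11.5 Pfkp had been at 13.6 and 10.3 CPM against 16.0 and 12.8 CPM, with overlap (0.29, SE 0.20).

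Hk2, the inducible hexokinase, stood at 45.8 and 46.4 CPM in the E12.5 Mboat7+/- cortices and at 41.0 and 32.9 CPM in those labelled Mboat7-/-. The log2 fold change was -0.32 (SE 0.12, adjusted p = 0.954), and it was -0.16 within replicate 1 and -0.50 within replicate 2. Hk1, the constitutive form, was nearly level at 72.4 and 73.6 against 71.6 and 73.7 CPM. The share of Hk2 in both forms per length was therefore 32.9% and 32.9% against 30.8% and 25.7%. At E11.5 Hk2 had been at 72.7 and 63.1 CPM against 93.3 and 66.0 CPM, higher rather than lower in the knockout mean.

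Aldoc at E12.5 stood at 73.3 and 56.5 CPM in the Mboat7+/- cortices and at 72.8 and 98.1 CPM in those labelled Mboat7-/-, so that the genotypes overlapped. Its log2 fold change was 0.40 (SE 0.15, adjusted p = 0.954), made up of -0.01 within replicate 1 and 0.80 within replicate 2. Its share of aldolase per length was 11.9% and 8.12% against 11.4% and 17.8%. At E11.5 the share was under 1% in every cortex, on 83 to 174 counts of Aldoc. The stages were counted with different annotations, so the difference in share between them was not tested. Vegfa, which draws blood vessels into the tissue, stood at 31.1 and 31.8 CPM against 34.8 and 40.1 CPM. Its log2 fold change was 0.25 (SE 0.11, adjusted p = 0.954), and with the replicate block it did not reach an unadjusted p of 0.05. Vegfa was higher in the knockout cortex of both replicate numbers, by 0.16 and by 0.33 on the log2 scale.

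**Figure D4:**
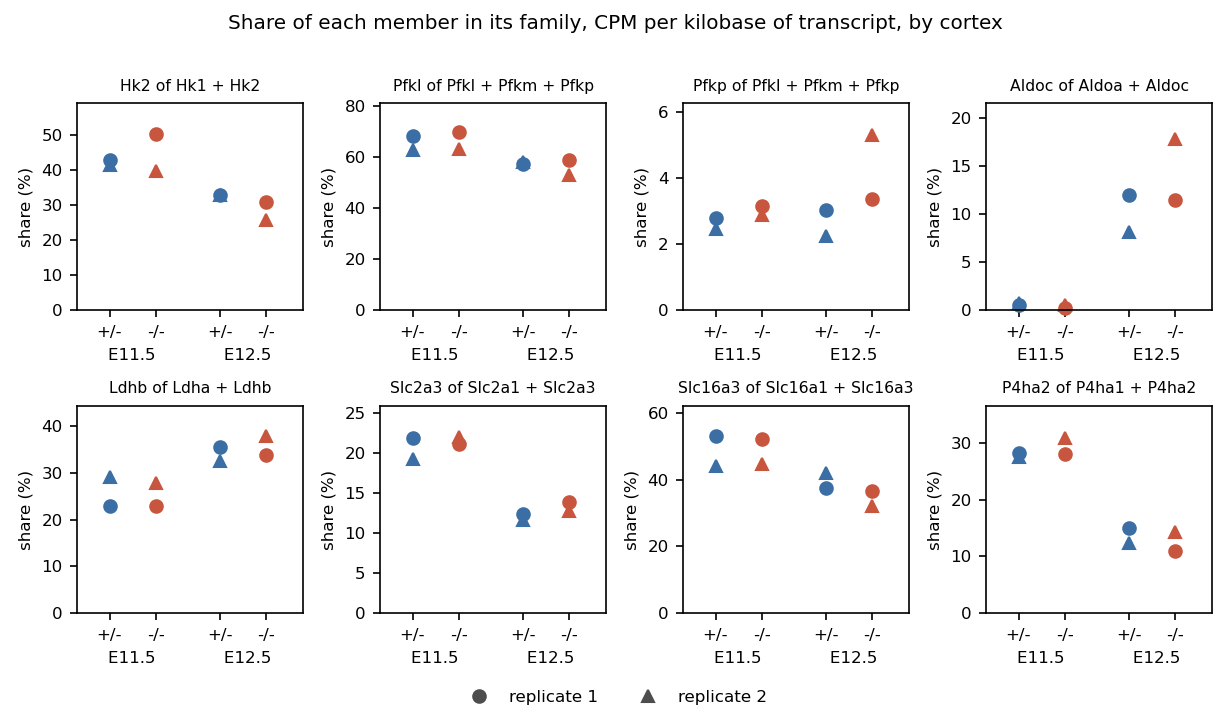
Share in percent (vertical axes, each from 0) of a member among the members of its family, from CPM per kilobase, in the Mboat7+/- (blue) and Mboat7-/- (red) cortices at each stage, with circles for replicate 1 and triangles for replicate 2. Pfkp and Aldoc reach 5.29% and 17.8% in Mboat7-/- replicate 2 at E12.5, above the other three cortices of that stage.

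Pfkp and Vegfa were thus the 2 members higher in both cortices labelled Mboat7-/- at E12.5, where 16.9% of all genes tested were. Lower in both were 8 of 36 members, or 22.2%, against 15.2% of all genes: Hk2, Pfkl, Pfkm, Ldhb, Pfkfb3, Egln1, Bnip3 and P4ha2. Ldhb, the lactate dehydrogenase of tissues that burn lactate, stood at 238 and 248 CPM against 235 and 212 CPM (-0.12, SE 0.10). Pfkfb3 stood at 53.6 and 53.5 CPM against 50.2 and 46.8 CPM (-0.14, SE 0.10), and Egln1 at 139.8 and 139.6 CPM against 138.7 and 118 CPM (-0.12, SE 0.10). Bnip3 stood at 25.9 and 30.6 CPM against 25.7 and 22.4 CPM (-0.23, SE 0.13), and P4ha2 at 4.32 and 3.89 CPM against 3.17 and 3.54 CPM (-0.29, SE 0.24). None of these 5 reached an unadjusted p of 0.05, and for Ldhb, Egln1 and Bnip3 the replicate 1 cortices of the 2 genotypes nearly coincided. Car9, untested, had 7 and 8 counts in the Mboat7+/- cortices, against 2 and 2 for the knockout. The ratio of its summed counts per library size, Mboat7+/- over Mboat7-/-, was 4.04 with an exact 95% interval from 1.29 to 16.7, which covers counting error only.

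Most of the shortfall of glycolytic enzymes at E12.5 was in a single cortex. Mboat7-/- replicate 2 had the lowest value in 23 of 36 members, where it was lowest in 30.6% of all genes, and Mboat7+/- replicate 2 had the highest in 20 of 36, where it was highest in 30.1%. Gapdh stood at 2862 and 3261 CPM in the Mboat7+/- cortices and at 2912 and 2380 CPM in the others (-0.21, SE 0.17). Pkm stood at 2013 and 2264 against 2026 and 1694 CPM (-0.20, SE 0.15), Eno1 at 875 and 952 against 896 and 713 CPM (-0.18, SE 0.13), Ldha at 602 and 713 against 638 and 486 CPM (-0.23, SE 0.14) and Tpi1 at 478 and 560 against 504 and 396 CPM (-0.21, SE 0.13). In each of these 5, the knockout cortex of replicate 1 lay between the Mboat7+/- cortices. The median log2 ratio over the 23 glycolysis members was 0.06 within replicate 1 and -0.39 within replicate 2. With the numbers of the Mboat7+/- cortices exchanged, these medians were -0.10 and -0.21.

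The order of the cortices in summed glycolytic enzymes at E12.5 was also their order in summed red blood cell markers. Mboat7+/- replicate 1 and Mboat7-/- replicate 1 were close in both sums, and Hba-a1, Hbb-bs and Alas2 by themselves had another order. The 17 enzymes summed to 9337 and 10526 CPM in the Mboat7+/- cortices and to 9569 and 7866 CPM in those labelled Mboat7-/-. The 8 red blood cell markers, all above 3 counts, summed to 4229 and 6268 CPM against 4298 and 2965 CPM. The 7 mesenchymal markers had the reverse order, at 649 and 508 CPM against 636 and 681 CPM. The 7 cortical progenitor markers summed to 1847 and 1981 CPM against 1837 and 1677 CPM. This sum was again highest in Mboat7+/- replicate 2 and lowest in Mboat7-/- replicate 2. Emx2, Sox2, Nes and Hes5 by themselves had these extremes, with Nes at 714 and 795 CPM against 632 and 573 CPM. Pax6 had the reverse, at 105 and 99.9 CPM against 118 and 120 CPM, and Emx1 and Lhx2 were highest in Mboat7-/- replicate 1. At E11.5 the orders of the sums differed, with the enzymes at 7379 and 6356 CPM against 7236 and 6194 CPM. Without Gapdh and Eno1, uncertain at that stage, the enzymes summed to 7097 and 6108 CPM against 7040 and 5960 CPM. Neuronal markers at E12.5 summed to between 3220 and 3425 CPM in all 4 cortices, but single markers were not level. Dcx, Neurod2 and Neurod6 were highest in Mboat7-/- replicate 2 and lowest in Mboat7+/- replicate 2. Tubb3 was the reverse, and Tbr1, Stmn2 and Map2 followed neither pattern. Neurod6 stood at 95.5 and 80.5 CPM in the Mboat7+/- cortices against 100 and 142 CPM. The 7 endothelial markers at E12.5 summed to 254 and 247 CPM against 261 and 274 CPM. Sums were 417 and 421 CPM against 432 and 469 CPM for the 3 intermediate progenitor markers. For the 5 microglial markers they were 30.9 and 26.4 CPM against 32.7 and 37.3 CPM. The genotypes were thus apart in these sums and in that of the cortical progenitor markers, which was lower in the knockout. The other sums overlapped. The part of these cell types in the members' values was not tested at E12.5 either.

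Without Mboat7-/- replicate 2, no E12.5 member had an unadjusted p under 0.05 (3.05% of all genes) or an FDR under it (0.273% of all genes), and the median log2 fold change was -0.02. Without Mboat7-/- replicate 1, 3 members were higher and 12 lower (12.4% of all genes), and Slc16a3, Hk2, Pfkp and Aldoc met an FDR under 0.05 (1.89% of all genes). Without Mboat7+/- replicate 2 only Hk2 remained at an unadjusted p under 0.05, where 2.06% of all genes were called. By replicate number, 6 members were higher in both replicate 1 cortices and 3 in both replicate 2 cortices at E12.5, where 12.1% and 12.1% of all genes were.

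The difference between genotypes was then compared between stages as an interaction over 8 cortices. At an unadjusted p under 0.05 there were 4 of 37 members, or 10.8%, against 5.46% of the 15028 genes tested, and no gene met an FDR under 0.05. For Aldoc the log2 interaction was 1.09 (SE 0.35, adjusted p = 0.859), with lower values in the knockout at E11.5 and a higher mean at E12.5. The log2 interaction was -0.56 for Hk2 (SE 0.22), -0.34 for Pfkfb3 (SE 0.15) and -2.60 for Car9 (SE 1.06), each with an adjusted p of 0.887. Pfkfb3, P4ha2 and Car9 were higher at E11.5 and lower at E12.5 in both knockout cortices, a pattern found in 2.50% of 15007 genes. Aldoc had an unadjusted p under 0.05 without any one of the 8 cortices. The count was 1 without E12.5 Mboat7+/- replicate 1, Mboat7+/- replicate 2 or Mboat7-/- replicate 2, where 3.64%, 4.45% and 3.71% of all genes were called. It rose to 12 without Mboat7-/- replicate 2 of E11.5, where the share of all genes was 11.1%.

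Over both stages together, with stage as a term, 3 members had an unadjusted p under 0.05, or 8.11%, against 12.4% of all genes. Pfkp was higher (0.40, SE 0.15, adjusted p = 0.349), Vegfa was higher (0.20, SE 0.09, adjusted p = 0.401) and Gapdh lower (-0.25, SE 0.09, adjusted p = 0.310) in the cortices labelled Mboat7-/-. The value of Gapdh rests in part on its uncertain E11.5 counts. Pfkp was higher within both replicate numbers at both stages, by 0.08 to 0.95 on the log2 scale. The count was 7 without E11.5 Mboat7-/- replicate 1 (10.9% of all genes), 6 without E12.5 Mboat7+/- replicate 1 (16.8%) and 5 without E12.5 Mboat7-/- replicate 1 (15.3%). Without E12.5 Mboat7+/- replicate 2 it was 1, Gapdh (7.43%).

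The remaining 16 members overlapped between genotypes at both stages and had no unadjusted p under 0.05 in the fits without a block. With the replicate block, P4ha1 had one at E11.5 and Slc16a3 at E12.5, where 17.6% and 3.56% of all genes did. The glucose transporter Slc2a1, the main one at the blood-brain barrier, was nearly level at 190.1 ± 17.0 against 189.5 ± 28.2 CPM at E11.5 and 148.3 ± 14.1 against 145.9 ± 8.95 CPM at E12.5 (mean ± SD, n = 2). The neuronal glucose transporter Slc2a3 was at 60.1 ± 12.1 against 62.9 ± 6.97 CPM and at 24.5 ± 1.03 against 27.2 ± 3.54 CPM. The lactate exporter Slc16a3 was at 29.9 ± 3.56 against 23.8 ± 7.57 CPM at E12.5. Its log2 fold change there was -0.33 (SE 0.18, adjusted p = 0.954), the lowest of the members tested. Hk1, Gpi1, Aldoa, Pgk1 and Pgam1 of the enzymes, Slc16a1, Pdk1 and Pfkfb4, and Egln3, P4ha1, Higd1a, Adm and Mxi1 of the HIF group had E11.5 log2 fold changes between -0.19 and 0.25, and those of E12.5 lay between -0.21 and 0.13.

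A wider list of 29 glycolysis and pyruvate genes held 22 tested at E11.5, of which 1 was higher and 1 lower at an unadjusted p under 0.05, and 18 tested at E12.5, of which none passed in either direction, where 14.1% and 4.23% of all genes did. A wider list of 43 HIF pathway genes and targets held 43 tested at E11.5, with 5 higher and 5 lower, and 42 at E12.5, with 1 higher, to be read against the same shares. None of either list met an FDR under 0.05 with edgeR in the fit without a block. With the replicate block, Lox (adjusted p = 0.0160) and Plod2, a collagen lysyl hydroxylase (adjusted p = 0.0458), met it at E11.5, where 3.38% of all genes did. Ranked by p among genes without overlap, the first 5 at E11.5 were Lox, a collagen crosslinking enzyme (log2 fold change 0.88, SE 0.18), Elob, a subunit of the complex that marks HIF for destruction (-0.25, SE 0.06), the corepressor Rcor2 (-0.22, SE 0.06), the pyruvate dehydrogenase kinase Pdk4 (2.47, SE 0.73, on 5, 4, 22 and 34 counts) and the mitochondrial pyruvate carrier Mpc2 (-0.37, SE 0.11). At E12.5 they were Vldlr (0.38, SE 0.13), Fam162a (-0.23, SE 0.12), Elob (-0.20, SE 0.11), the neuronal enolase Eno2 (0.32, SE 0.18) and Bhlhe41 (0.67, SE 0.39), of which only Vldlr, a lipoprotein receptor, had an unadjusted p under 0.05.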

How the data were processed

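Total RNA of each dissected cortex was poly(A)-selected and made into a directional library, per the labels. The authors deposited raw read counts per gene, without normalization, as 1 table per stage, with 23420 genes by symbol at E11.5 and 78298 genes by Ensembl identifier at E12.5. The submitters' processing notes name HISAT2, Subread, mm10 and GRCm39 without a version or a role, so which build or annotation made which table is not given in the sources used here. Names and identifiers were paired with a table of gene symbols. Ero1l was matched as Ero1a in the promoter table, and of the 2 identifiers of Aldoa at E12.5 the one with more counts was used.

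Within a stage, genotypes were compared in R 4.3.3 with the quasi-likelihood test of edgeR 4.0.16 on TMM library sizes, after filterByExpr had removed genes with low counts at its minimum of 10. P-values were adjusted over all genes tested by the method of Benjamini and Hochberg, and fold changes are Mboat7-/- over Mboat7+/-. The SE is the log2 fold change divided by the root of the F statistic. Stage and provider are 1 term in the fits over 8 cortices. CPM use the TMM library sizes, and levels per kilobase use the longest coding transcript of GENCODE M21. A count of 3 was the floor, between 0.106 and 0.144 CPM. Between every pair of cortices the chi-square per degree of freedom was 4.64 or more, up to 25.8, above sampling noise. Because the labels list each replicate number as a batch number too, same-numbered cortices were paired for the ratios within a replicate number. They were also paired in the replicate block, which was an alternative. The main fits had no pairing, so p-values and SE are unpaired unless the block is named. The deviations of same-numbered cortices from the mean of the genotype had a correlation across genes of 0.083 (E11.5) and -0.201 (E12.5). Over the 36 members tested at each stage this correlation was 0.469 (E11.5) and -0.427 (E12.5), so its sign differed between the stages. Promoters were searched and figures drawn with Python 3.11.15, pandas 2.3.3 and matplotlib 3.10.9.

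The members and lists were chosen with earlier results of these data known, and support nothing by themselves. Members named with full values are those with an unadjusted p under 0.05 or without overlap at either stage, and the 3 highest per length at each stage. Of the wider lists, the 5 with the smallest p without overlap at each stage are named. Alternatives were RLE, upper-quartile and total-count scaling, DESeq2 1.42.0, no filter, a minimum of 10 counts in all cortices, the replicate block, edgeR's earlier quasi-likelihood fit and leaving out each cortex, and the fits were tested on simulated data.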

Additional observations from a re-analysis of the deposited data

Results flagged for a closer look

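For 3 members, every cortex labelled Mboat7-/- was above both Mboat7+/- cortices at E11.5 and below both at E12.5, so the genotypes separated in opposite directions at the different stages. The same pattern was found in 2.50% of 15007 genes. Pfkfb3 had a log2 interaction of -0.34 (SE 0.15, unadjusted p = 0.0373, adjusted p = 0.887 with edgeR's quasi-likelihood test). P4ha2 had a log2 interaction of -0.64 (SE 0.34, unadjusted p = 0.0808, adjusted p = 0.888). Car9 had a log2 interaction of -2.60 (SE 1.06, unadjusted p = 0.0279, adjusted p = 0.887), which depends on the small prior count that edgeR adds, since the E12.5 cortices labelled Mboat7-/- held 2 counts each. None of the 3 interactions passed the threshold after adjustment over 15028 genes.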

How the results depend on the processing

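Other scalings, filters and tools left the count of members with an unadjusted p under 0.05 within 1.5 times its value of 4 at each stage, 4 for the interaction and 3 over both stages, except 1 at E12.5 with no filter and 5 over both stages with total counts. The replicate block gave 7 members at E11.5 and 1 at an FDR under 0.05, and moved no other count of members by more than 1.5 times. After the data were seen, the E12.5 cortices were also paired with crossed numbers, which gave 17 members and 4 at an FDR under 0.05, where 12.7% and 0.968% of all genes were called. Leaving out each cortex in turn gave 2 to 16 members at E11.5, 0 to 15 at E12.5, 1 to 12 for the interaction and 1 to 7 over both stages, and at an FDR under 0.05 it gave 0 to 9 at E11.5 and 0 to 4 at E12.5. The median log2 fold change lay between -0.10 and 0.20 at E11.5 and between -0.20 and -0.02 at E12.5 without 1 cortex. Of 500 fold changes of named members under alternatives, 477 kept their sign. With 1 cortex left out, the E11.5 log2 fold change ran from -0.039 to 0.46 for Hk2, -0.082 to 0.27 for Pfkl, -0.071 to 0.067 for Pfkm, -0.26 to 0.06 for Tpi1, -0.094 to 0.038 for Pkm, -0.28 to 0.22 for Ldha, -0.047 to 0.32 for Vegfa and -0.23 to 0.68 for Bnip3. At E12.5 it ran from -0.10 to 0.24 for Hif1a, -0.11 to 0.15 for Ero1l and -0.036 to 0.061 for Kdm3a. At E11.5 Pfkm was at 0.015 with total counts, 0.0004 with DESeq2 and 0.0029 with no filter, and Ldha at 0.012 with total counts. With 1 cortex left out, the lone cortex of its genotype was assumed to vary like the others. The cause of these changes was not tested, and 2 cortices per genotype limit every value.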
